A study of Mus musculus with 12 samples.

Results

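The genes described here encode the receptors for glutamate and GABA, and they were examined for accessible chromatin in sorted cells of mouse SHH medulloblastoma. All protein-coding genes of the mm10 gene table whose symbols name an AMPA, kainate, NMDA, delta or metabotropic glutamate receptor, or a GABA-A or GABA-B receptor, were taken, which gave 47 of 21631 genes. Of these, 26 encode glutamate receptors and 21 encode GABA receptors. Accessibility was measured by ATAC-seq, which reads open DNA from where a transposase can place adapters, and each library is represented by the list of peaks that the authors called in it. Tumour cells came from untreated Ptch1+/- mice at endpoint, and every group shares that genotype, so no group is free of the Ptch1 mutation. The SOX2+ group (4 libraries) held cells positive for the eGFP that marks stem-like cells. The SOX2+/MKI67+ group (2 libraries) and the SOX2+/MKI67- group (2 libraries) held cycling and non-cycling SOX2+ cells separated by RFP. The SOX2- group (4 libraries) held the eGFP-negative tumour bulk. What drives each reporter, the age of the mice and whether replicates came from separate mice are not given in the sources used here, so p-values cover the spread between the libraries, which could be technical alone.

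Glutamate is the main excitatory transmitter of the brain and GABA the main inhibitory one. AMPA, kainate and NMDA receptors are ion channels assembled from glutamate-binding or glycine-binding subunits, delta receptors act as synaptic organisers, and metabotropic receptors signal through G proteins. GABA-A receptors are chloride channels assembled from alpha, beta, gamma and other subunits, and GABA-B receptors are G-protein-coupled heterodimers. In the cerebellum, granule neurons are excited through glutamate receptors and inhibited through GABA-A receptors, and granule neuron progenitors are the cells from which SHH medulloblastoma arises.

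The lists held 9377 to 25272 peaks in SOX2+, 18738 and 24694 in SOX2+/MKI67+, 17615 and 19229 in SOX2+/MKI67-, and 7009 to 26206 in SOX2- libraries. SOX2+ replicate 2 and SOX2- replicate 1 stood apart as the shortest lists of their groups, and read depth is unknown. Sox2 itself had 5, 2, 6 and 4 peaks in SOX2+ libraries, against 0, 1, 1 and 1 in SOX2- libraries. Stem cell and radial glia markers together took 9.89 to 11.7 of every 10000 peaks in SOX2+ and 2.85 to 6.87 in SOX2- libraries, and granule neuron progenitor markers 7.47 to 16.8 in SOX2+ and 14.3 to 23.7 in SOX2- libraries. Microglia and macrophage markers took 1.02 to 1.98 in SOX2+ and 0 to 1.38 in SOX2- libraries, and Csf1r, Aif1, Cx3cr1, Itgam and C1qa had a peak in 0 of 12 lists. Endothelial and mural markers took 1.07 to 3.17 in SOX2+ and 0 to 4.20 in SOX2- libraries. SOX2+ cells were compared with SOX2- cells in the limma fit described with the receptor genes. There 2 of 10 stem cell (Fabp7 and Sox21) and 2 of 9 oligodendrocyte lineage markers (Nkx2-2 and Olig2) rose, against 0.751% of all genes. Sox2 was not called (limma adjusted p = 0.0583). Fabp7, Sox21 and Nkx2-2 had no peak in any SOX2- list, so they entered the test through groups in which they are high. Fabp7 had 1 peak in every list of SOX2+ cells, which left almost no spread (SE 0.0089). In the same fit 1 of 15 granule neuron progenitor, 2 of 11 granule neuron and 1 of 8 Purkinje cell and interneuron markers fell. Of all 14245 genes tested 125 were called, and 107 of these were higher, so falls were the smaller part. Of astrocyte, microglia and endothelial markers 0 of 8, 0 of 2 and 0 of 5 were called, against 0.878% of all genes. An unadjusted p under 0.05 was reached by 13.2% of all genes. It was reached by 6 stem cell (5 higher, 1 lower), 4 oligodendrocyte lineage (all higher) and 8 granule neuron progenitor markers (1 higher, 7 lower). The numbers were 3 for granule neuron (1 higher, 2 lower), 1 for Purkinje cell and interneuron, 3 for astrocyte, 1 for microglia and 0 for endothelial markers. The part of these cell types in the results on receptor genes was not tested.

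Each peak counted for the gene whose span was nearest to its midpoint, up to 100 kb away, and the number of peaks per gene is the level used throughout. Receptor genes are long, with a median span of 183.3 kb against 17.3 kb over all genes, which leaves more room for peaks. They carried 754 peaks over the 12 lists, 558 at glutamate and 196 at GABA receptor genes. Gria2, Gria4, Grik4, Gabrb1 and Gabbr1 had a peak in all 12 lists, and Grin2c, Grin3b, Grm6, Gabra6, Gabrp and Gabrr1 in 0 of 12. Gabra3, Gabrd, Gabrq and Gabrr2 had a peak in 1 list each. These 10 genes with peaks in fewer than 2 lists were not tested, and the remaining 37 were. The genes without a peak included Gabra6 and Grin2c, which encode receptor subunits of mature cerebellar granule neurons. Peaks can be split between neighbours in the GABA-A clusters, since the spans of Gabra4 and Gabrb1 on chromosome 5 overlap.

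**Figure D1:**
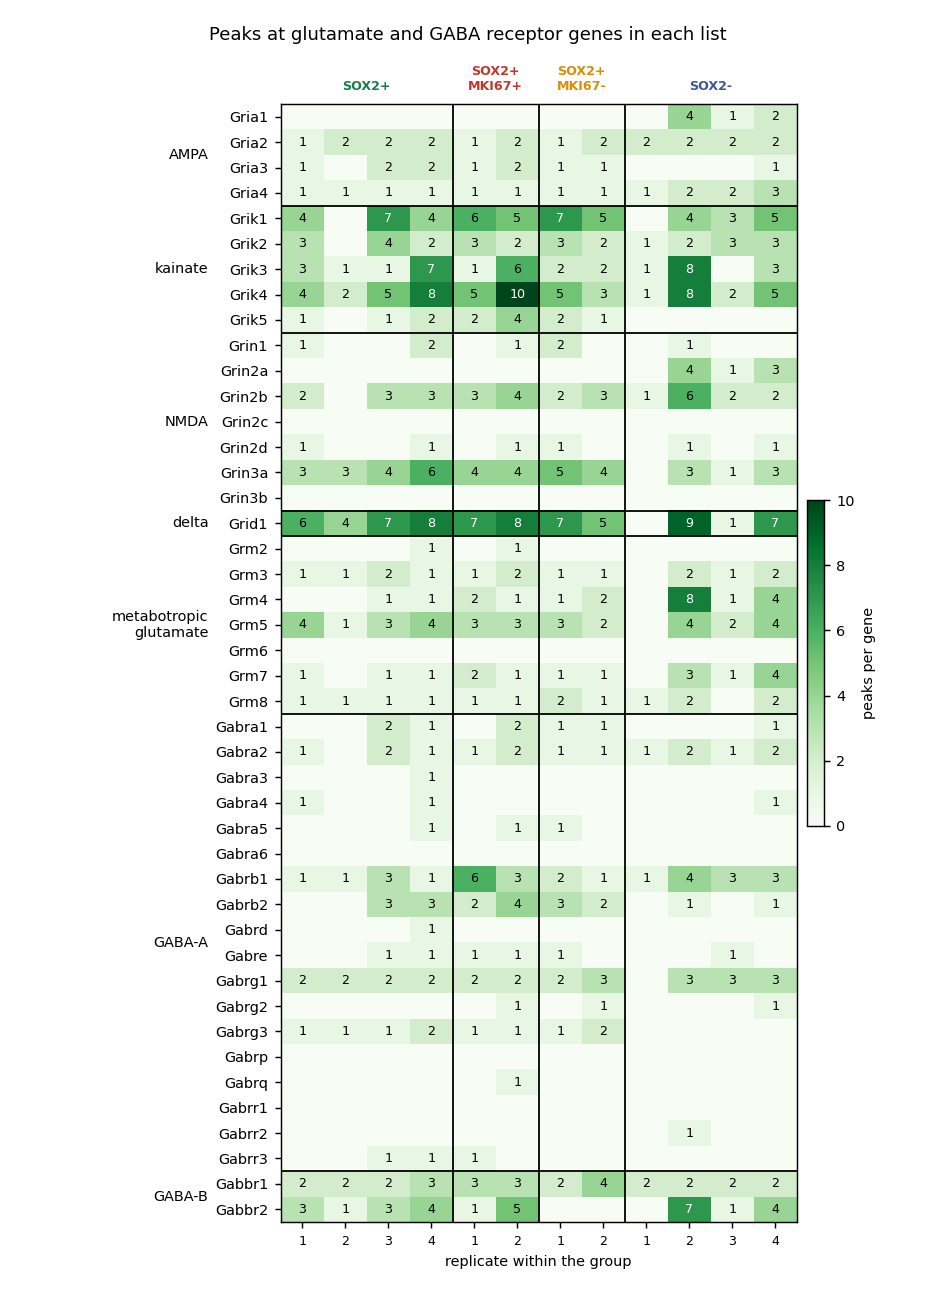
Number of peaks per gene for 44 receptor genes (rows, grouped by receptor family) in each of the 12 lists (columns, numbered by replicate within the group), with empty cells at 0. Gria1 and Grin2a have peaks in SOX2- lists and in 0 lists of the other 3 groups, and Gabrg3 shows the opposite order.

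The promoters of 4 receptor genes are shown because their windows range from covered in all 12 lists to covered in lists of SOX2+ cells alone. Sequences are the RefSeq windows of 250 bases before to 50 after an annotated start on GRCm38.p6, whose coordinates are those of mm10, written 5′ to 3′ with each CG dinucleotide in capitals. A peak lay over the windows of Gria2 (chr3:80802786-80803085, minus strand) and Gria4 (chr9:4796185-4796484, minus strand) in all 12 lists. The window of Gabrg3 (chr7:57387166-57387465, minus strand) was covered in 4 of 4 SOX2+, 2 of 2 SOX2+/MKI67+, 2 of 2 SOX2+/MKI67- and 0 of 4 SOX2- lists. A window of Gabrb2 (chr11:42420190-42420489, plus strand) was covered in 2 of 4 SOX2+, 2 of 2 SOX2+/MKI67+, 2 of 2 SOX2+/MKI67- and 0 of 4 SOX2- lists. Further windows of Gabrb2, at chr11:42420524-42420823 and chr11:42420951-42421250, were covered in 4 and 0 lists and are not printed.
Gria2: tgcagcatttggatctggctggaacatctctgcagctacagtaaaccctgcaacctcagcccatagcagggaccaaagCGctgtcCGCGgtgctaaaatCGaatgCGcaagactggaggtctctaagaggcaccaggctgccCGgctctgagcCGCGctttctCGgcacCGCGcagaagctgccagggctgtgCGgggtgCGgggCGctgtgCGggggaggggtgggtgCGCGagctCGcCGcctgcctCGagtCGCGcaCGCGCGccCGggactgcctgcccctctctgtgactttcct
Gria4: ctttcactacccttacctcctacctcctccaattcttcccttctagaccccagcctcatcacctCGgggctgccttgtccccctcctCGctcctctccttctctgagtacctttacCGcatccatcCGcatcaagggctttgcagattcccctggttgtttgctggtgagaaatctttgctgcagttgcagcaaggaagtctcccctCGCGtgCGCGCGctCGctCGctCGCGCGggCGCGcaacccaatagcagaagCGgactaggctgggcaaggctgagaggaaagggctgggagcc
Gabrg3: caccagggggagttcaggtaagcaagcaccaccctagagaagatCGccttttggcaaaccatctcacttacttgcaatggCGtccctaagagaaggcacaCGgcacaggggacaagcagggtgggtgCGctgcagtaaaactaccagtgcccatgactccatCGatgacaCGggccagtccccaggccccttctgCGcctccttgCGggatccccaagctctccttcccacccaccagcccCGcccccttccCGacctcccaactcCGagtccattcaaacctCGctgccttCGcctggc
Gabrb2: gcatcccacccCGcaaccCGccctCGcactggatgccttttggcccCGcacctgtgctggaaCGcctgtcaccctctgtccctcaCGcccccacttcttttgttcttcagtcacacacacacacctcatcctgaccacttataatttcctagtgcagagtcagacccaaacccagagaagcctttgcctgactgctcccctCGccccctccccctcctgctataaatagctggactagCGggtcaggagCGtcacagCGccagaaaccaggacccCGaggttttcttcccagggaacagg

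Between the stem-like and the bulk compartment, the GABA-A subunit gene Gabrg3 was the receptor gene whose peak number passed the test, and it rose in SOX2+ cells. The AMPA subunit gene Gria1 and the NMDA subunit gene Grin2a had peaks in SOX2- lists alone, the NMDA subunit gene Grin3a had more in SOX2+ lists, and none of these 3 passed. Peaks per gene were tested with limma on log2(peaks + 1), with the 4 groups and the log10 of the list length in the fit, and p-values were adjusted by Benjamini-Hochberg over 14245 genes. Of 37 receptor genes 1 was called at an adjusted p under 0.05, against 0.878% of all genes tested, and it was higher in SOX2+ cells, as were 0.751% of all genes. An unadjusted p under 0.05 was reached by 10 (27.0%), against 13.2% of all genes and 20.0% of genes spanning at least 100 kb. Of these, 4 were higher in SOX2+ cells (6.84% of all genes) and 6 were lower (6.40% of all genes). The log2 difference had a median of 0.0044 over the 37 genes and 0 over all genes tested, and it was positive at 19 and negative at 18. Many genes have the same number in every list, and their zero spread enters the variance prior. In an alternative chosen after seeing the data, the 1705 genes of equal number in all 12 lists were left out, and then 3 receptor genes passed, against 1.83% of 12540 genes. Gabrg3 was higher, as were 1.43% of those genes, and Gria1 and Grin2a were lower, as were 0.399%. Gria1 and Grin2a have peaks in 3 lists, all SOX2-, so they entered the test through the group in which they are high. They were not tested when a peak in at least 4 libraries was required. Gabrg3 has peaks in 8 lists, all from SOX2+ cells of both sorts, so it too entered through groups in which it is high.

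**Figure D2:**
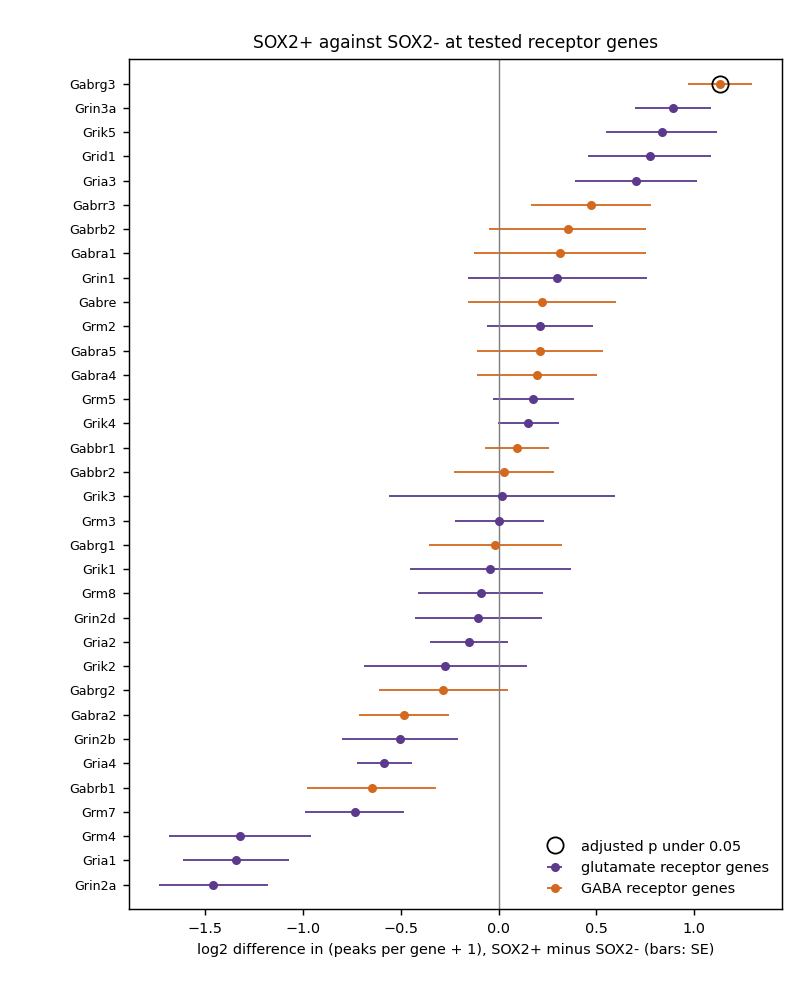
Log2 difference in (peaks per gene + 1) between SOX2+ and SOX2- libraries, adjusted for list length, for 34 of the tested receptor genes, with bars for the standard error and a ring where the adjusted p was under 0.05. The values run from -1.46 at Grin2a to 1.13 at Gabrg3, the ringed gene.

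Among AMPA receptor genes, which encode the fast excitatory channel, limma called 0 of 4, with 2 lower at an unadjusted p under 0.05. Gria1 (chr11:57011571-57330244) was listed at 0 in all SOX2+, SOX2+/MKI67+ and SOX2+/MKI67- libraries and at 0, 4, 1 and 2 peaks in SOX2- replicates 1 to 4. SOX2- replicate 1, the shortest list of all, was level with the other groups. The log2 difference between SOX2+ and SOX2- was -1.34 ± 0.27 (SE, limma adjusted p = 0.0784, 0.0395 without the genes of equal number, and 0.0130 to 0.474 over its 19 alternatives). SOX2- replicate 2, the longest list, held all 4 of its regions, and the regions of replicates 3 and 4 were among these. Gria4, a subunit found in cerebellar cells, had 1 peak in each SOX2+ library, against 1, 2, 2 and 3 in SOX2- libraries, a log2 difference of -0.58 ± 0.14 (limma adjusted p = 0.124). The region shared by all 12 lists was the promoter at chr9:4795454-4796477, and the additional regions inside the gene were listed in SOX2- replicates 2 and 4. SOX2- replicate 3, with 2 peaks, was listed at the promoter region alone. Gria2, whose subunit makes the channel impermeable to calcium, averaged 1.75 ± 0.50 peaks in SOX2+ and 2.00 ± 0 in SOX2- libraries (SD, n = 4 each). Gria3 averaged 1.25 ± 0.96 in SOX2+ and 0.25 ± 0.50 in SOX2- libraries, with a log2 difference of 0.70 ± 0.31 that did not pass (limma adjusted p = 0.403).

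Kainate receptor genes, whose subunits form slower glutamate channels, carried 184 peaks, and by limma 0 of 5 passed, with 1 at an unadjusted p under 0.05. Grik4 had the most peaks of them, with 4, 2, 5 and 8 peaks in SOX2+ libraries, against 1, 8, 2 and 5 in SOX2- libraries. These ranges overlap almost wholly, and the log2 difference was 0.15 ± 0.16 (limma adjusted p = 0.772). Grik1 had 4, 0, 7 and 4 peaks in SOX2+ libraries, against 0, 4, 3 and 5 in SOX2- libraries, and the sign of its log2 difference of -0.041 ± 0.41 turned under several settings. Grik5, which encodes a high-affinity partner subunit, had 1, 0, 1 and 2 peaks in SOX2+, 2 and 4 in SOX2+/MKI67+, 2 and 1 in SOX2+/MKI67-, and 0 in each SOX2- library. Its log2 difference between SOX2+ and SOX2- was 0.83 ± 0.28 (limma adjusted p = 0.243). Grik5 has peaks in 7 lists, all from SOX2+ cells of both sorts, so it entered the test through groups in which it is high.

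NMDA receptor genes encode the channels that need glutamate together with glycine, and by limma 0 of 5 tested passed, with 1 higher and 1 lower at an unadjusted p under 0.05. Grin2a (chr16:9567901-9996083), whose subunit is prominent in mature neurons, was listed at 0 in all 8 SOX2+ libraries of both sorts and at 0, 4, 1 and 3 peaks in SOX2- libraries. Its log2 difference between SOX2+ and SOX2- was -1.46 ± 0.28 (limma adjusted p = 0.0701, 0.0304 without the genes of equal number, and 0.00670 to 0.457 over its 20 alternatives). As at Gria1, SOX2- replicate 1 had none. Grin3a, whose subunit binds glycine and lowers calcium entry, had 3, 3, 4 and 6 peaks in SOX2+, 4 and 4 in SOX2+/MKI67+, 5 and 4 in SOX2+/MKI67-, and 0, 3, 1 and 3 in SOX2- libraries. The highest SOX2- values equal the lowest SOX2+ values, and the log2 difference was 0.89 ± 0.19 (limma adjusted p = 0.0914). Grin1, the obligatory subunit, had a peak in 2 of 4 SOX2+ and 1 of 4 SOX2- lists, and Grin2b, a subunit of immature neurons, averaged 2.00 ± 1.41 peaks in SOX2+ and 2.75 ± 2.22 in SOX2- libraries (SD, n = 4 each).

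Grid1, a delta receptor gene whose product binds cerebellins, had 6, 4, 7 and 8 peaks in SOX2+, 7 and 8 in SOX2+/MKI67+, 7 and 5 in SOX2+/MKI67-, and 0, 9, 1 and 7 in SOX2- libraries. The SOX2- values reach from below to above every SOX2+ value, in the order of list length, and the log2 difference was 0.77 ± 0.32 (limma adjusted p = 0.340). With the 7009 highest-scoring peaks taken from every list, that difference was 1.29 ± 0.19 (limma adjusted p = 0.00591, and 0.00591 to 0.855 over its 23 alternatives). Of the metabotropic receptor genes 0 of 7 tested passed by limma. Grm4, which acts on granule neuron output synapses, had 0, 0, 1 and 1 peaks in SOX2+ libraries, against 0, 8, 1 and 4 in SOX2- libraries (log2 difference -1.32 ± 0.36, limma adjusted p = 0.176). Grm7, a presynaptic receptor, had a log2 difference of -0.74 ± 0.25 (limma adjusted p = 0.258). Grm5 averaged 3.00 ± 1.41 peaks in SOX2+ and 2.50 ± 1.91 in SOX2- libraries.

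Of the GABA-A receptor genes 12 of 19 were tested and 1 rose. Gabrg3, which encodes a gamma subunit at chr7:56716463-57387215, had 1, 1, 1 and 2 peaks in SOX2+, 1 and 1 in SOX2+/MKI67+, 1 and 2 in SOX2+/MKI67-, and 0 in each SOX2- library. The SOX2+ and SOX2- groups do not overlap, and the log2 difference was 1.13 ± 0.16 (limma adjusted p = 0.0249). The call was lost without any of SOX2+ replicates 1, 2 and 3 and SOX2- replicates 2, 3 and 4 (adjusted p = 0.0523 to 0.101). With the higher-scoring peaks of each list, those ranked above its median score, the difference was -0.0093 (adjusted p = 1), and over its 22 alternatives the adjusted p ran from 0.00719 to 1. The promoter region, chr7:57386572-57387468, had a -log10 q, as the authors' peak caller gave it, of 3.48 to 10.2 in the 8 lists that held it. A further region inside the gene, chr7:57274584-57274796, was listed in SOX2+/MKI67- replicate 2 alone. Gabrb1, a beta subunit gene, had 1, 1, 3 and 1 peaks in SOX2+ libraries, against 1, 4, 3 and 3 in SOX2- libraries, a log2 difference of -0.65 ± 0.33 (limma adjusted p = 0.490). Gabrb2, which encodes another beta subunit, had 0, 0, 3 and 3 peaks in SOX2+, 2 and 4 in SOX2+/MKI67+, 3 and 2 in SOX2+/MKI67-, and 0, 1, 0 and 1 in SOX2- libraries. The SOX2- range lies within the SOX2+ range. Gabrg1, a gamma subunit gene of glia and some neurons, had 2 peaks in each SOX2+ library, against 0, 3, 3 and 3 in SOX2- libraries. By limma 0 of 2 GABA-B receptor genes passed and 0 had an unadjusted p under 0.05, as Gabbr1 averaged 2.25 ± 0.50 peaks in SOX2+ and 2.00 ± 0 in SOX2- libraries, and Gabbr2 2.75 ± 1.26 and 3.00 ± 3.16 in the same groups (SD, n = 4 each).

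As a share of all peaks, the receptor families overlapped between the compartments. Glutamate receptor genes held 23.3 ± 4.55 of every 10000 peaks in SOX2+ and 23.6 ± 9.79 in SOX2- libraries (SD, n = 4 each). The lowest and highest of all 12 values, 11.4 and 33.6, were those of the shortest and the longest list, both SOX2-. GABA receptor genes held 8.87 ± 1.47 of every 10000 peaks in SOX2+ and 7.99 ± 1.64 in SOX2- libraries. Each of these differences was smaller than the spread between replicates.

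Merging peaks that shared 1 bp or more across the lists gave 44242 regions, of which 203 lay at 40 receptor genes. Of the 203 regions 67.0% lay inside a gene span and more than 1 kb from its ends, against 38.9% of all regions. Regions listed in all 12 libraries made up 5 of the 203 (2.46%), against 12.2% of all regions. They were regions over the promoters of Gria2, Gria4 and Gabbr1, a region inside Gabbr1 at chr17:37049937-37051069 and a region inside Gabrb1 at chr5:71700653-71701478. The annotated 300-base promoter window of Gabbr1 was itself covered in 11 lists. A region was called exclusive to SOX2+ or to SOX2- cells when 3 or 4 libraries of that group held it and 0 of 4 in the opposite group did. Of the receptor-gene regions 10 (4.93%) were exclusive to SOX2+ cells, against 4.10% of all regions, and 9 (4.43%) to SOX2- cells, against 1.54% of all regions. The SOX2+ share is near the background and the SOX2- share is above it, and no test of either difference was made. Absence from a list does not show closed chromatin, since the signal can be below the calling threshold.

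Of the 10 regions exclusive to SOX2+ cells 9 lay at glutamate receptor genes, which held 155 of the 203 regions. Exclusive regions made up 5.81% of regions at glutamate and 2.08% at GABA receptor genes, against 4.10% of all regions. All 4 SOX2+ libraries held 6 of the 10, against 39.2% of the 1814 regions of this kind in the genome. As a share of all regions, those held by all 4 SOX2+ and 0 SOX2- libraries made up 2.96% at receptor genes and 1.61% in the genome. Grid1 held 3 of them, all inside the gene, at chr14:34825962-34826378, chr14:34896135-34896834 and chr14:35074599-35075124. They lay 6.17, 76.5 and 255 kb from the lower-numbered end of the gene span. All 4 SOX2+ lists held each of these 3, although the total peak number of Grid1 overlapped between the groups. The region of Grik4 at chr9:42897364-42898441 was also listed in 4 of 4, with a -log10 q of 7.50 to 21.0 in the SOX2+ libraries. In Grin3a the region was chr4:49741178-49741750, inside the gene and listed in 4 of 4. The promoter of Gabrg3 was the sixth listed in 4 of 4. Regions listed in 3 of 4, and absent from the shortest SOX2+ list, lay inside Grik1 (chr16:88112759-88113229), Grik2 (chr10:49782673-49783510) and Grik5 (chr7:25072737-25073470) and 8.20 kb outside Gria3 (chrX:41392384-41392845). The Grik5 region began 117 bp beyond the upstream edge of its annotated promoter window, and the Grik2 region lay 5194 bp from the nearest window of that gene.

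The 9 regions exclusive to SOX2- cells lay at 9 different genes, 6 of glutamate and 3 of GABA receptors. They made up 3.87% of regions at glutamate and 6.25% at GABA receptor genes, against 1.54% of all regions. All 4 SOX2- libraries held 0 of the 9, against 10.3% of the 680 regions of this kind in the genome (0.158% of all regions). SOX2- replicate 1, the shortest list, held only the region inside Grm8, a presynaptic metabotropic receptor gene (chr6:27408462-27408825). The region at Grin2a lay 9.70 kb outside the gene span at chr16:10005573-10005998, with a -log10 q of 16.8, 3.21 and 9.15 in SOX2- replicates 2 to 4. At Grin2b it lay at the gene end (chr6:136173295-136173847). Inside genes lay the regions of Grik2 (chr10:49639935-49640358), Gabbr2 (chr4:46957892-46958372) and Gabrb1 (chr5:71986934-71987493). Outside them lay the regions of Grm4 (15.3 kb, chr17:27406851-27407335) and Gabrg1 (25.7 kb, chr5:70868026-70868529). Grik2 thus held a region of each kind, 689 kb and 546 kb from the lower-numbered end of its span.

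**Figure D3:**
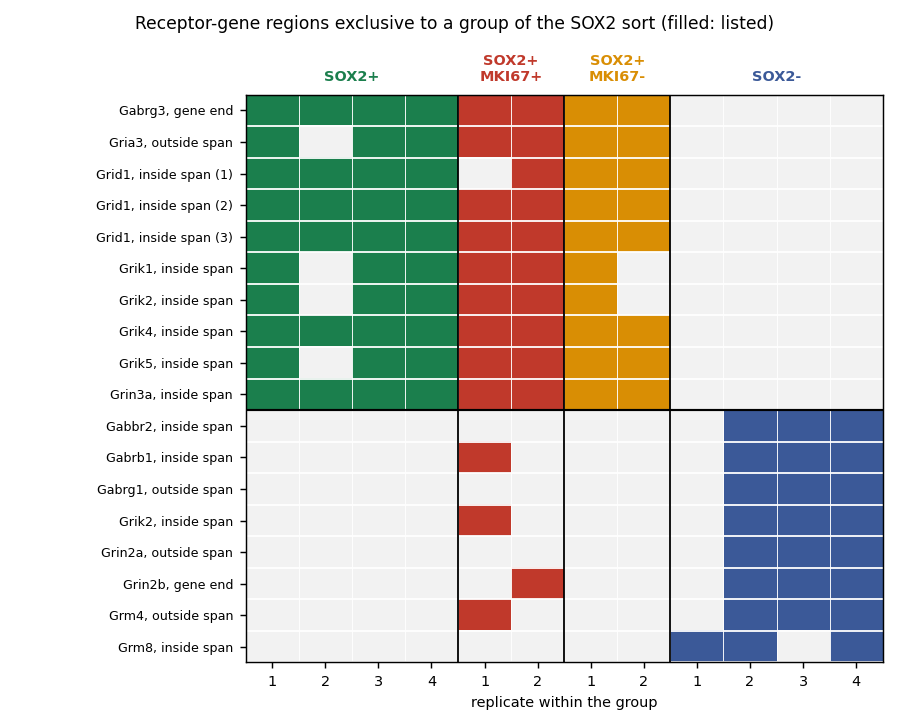
The 10 regions exclusive to SOX2+ libraries (above the black line) and 8 of the 9 exclusive to SOX2- libraries (below it) at receptor genes, one per row, with a filled cell where the list of that replicate held the region. The MKI67 libraries, which did not enter the rule, hold all 10 of the upper set at least once per group, and SOX2+/MKI67- libraries hold 0 of the 8 lower ones.

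The 4 libraries of the MKI67 sort did not enter the rule for these regions. Of the 10 regions exclusive to SOX2+ cells, 9 were listed in 2 of 2 SOX2+/MKI67+ libraries (67.5% of all such regions of the genome) and 8 in 2 of 2 SOX2+/MKI67- libraries (80.3%). Of the 9 exclusive to SOX2- cells, 0 were listed in a SOX2+/MKI67- library, and 5 were listed in 1 of 2 SOX2+/MKI67+ libraries. Over all 680 such regions, 98.1% were in neither SOX2+/MKI67- library and 50.3% in neither SOX2+/MKI67+ library. The shared regions included those of Gabrb1, Grik2 and Grm4 in SOX2+/MKI67+ replicate 1 and Grin2b in replicate 2.

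**Figure D4:**
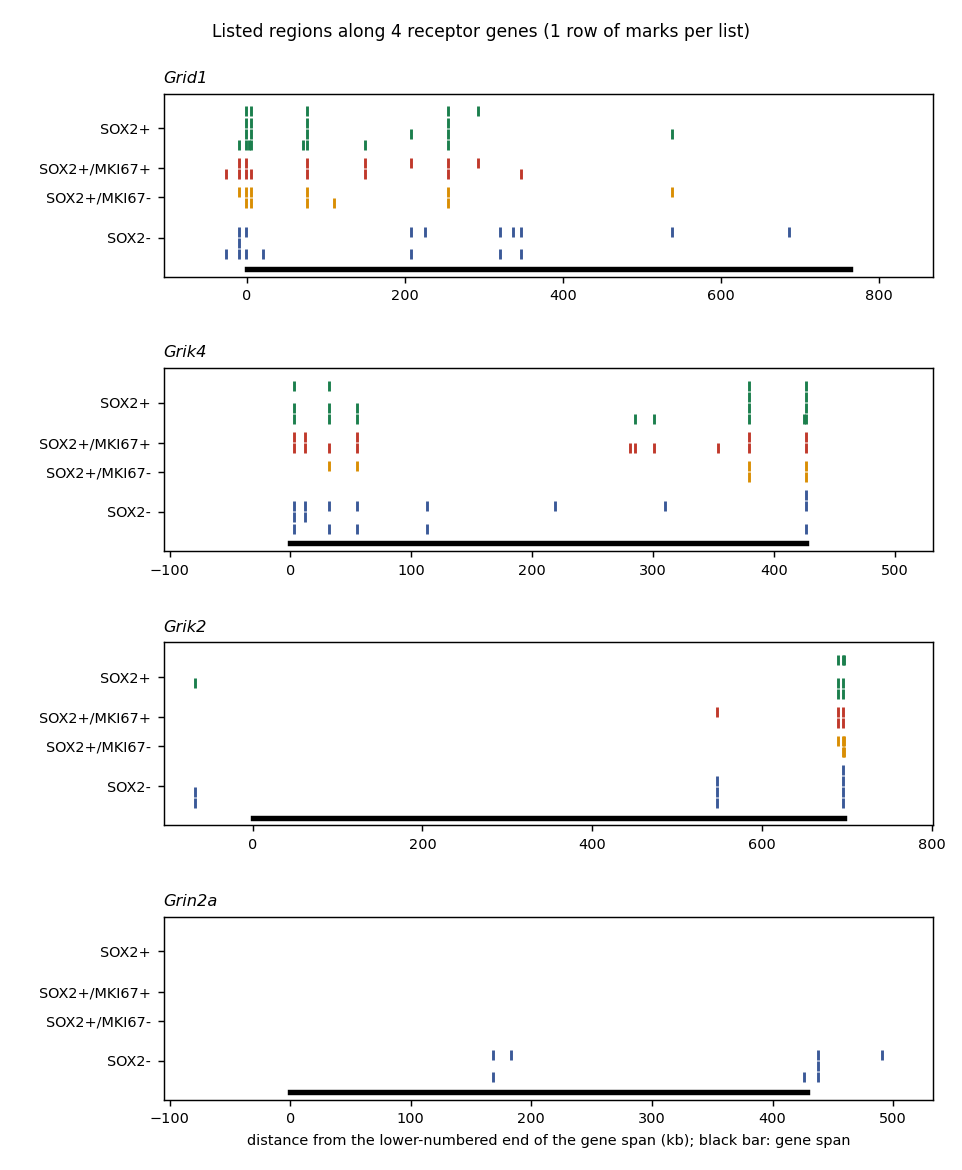
Positions of listed regions along Grid1, Grik4, Grik2 and Grin2a, in kb from the lower-numbered end of the gene span (black bar), with a row of marks per list, coloured by group. At Grid1 the marks at 6.17, 76.5 and 255 kb recur in SOX2+ lists of both sorts and are absent from SOX2- lists, and at Grin2a every mark belongs to a SOX2- list.

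Between cycling and non-cycling SOX2+ cells, 0 of 37 receptor genes passed limma's test, against 0.225% of all genes, and 1 had an unadjusted p under 0.05, against 4.69% of all genes. That gene was Gabbr2, which encodes the GABA-B subunit that couples to G proteins. It had 1 and 5 peaks in SOX2+/MKI67+ libraries, against 0 and 0 in SOX2+/MKI67- libraries, a log2 difference of 1.48 ± 0.36 (limma adjusted p = 0.692). The SOX2+/MKI67+ values differ from each other by more than the lower of them differs from 0. Gabrb1 had 6 and 3 peaks in SOX2+/MKI67+ libraries, against 2 and 1 in SOX2+/MKI67- libraries, with a log2 difference of 1.01 ± 0.46, and Grik4 had 5 and 10, against 5 and 3, with one of 0.47 ± 0.22 (limma adjusted p = 1 for each). Single libraries moved these differences. At Gabbr2 it was 0.97 without SOX2+/MKI67+ replicate 2 and 2.02 without replicate 1, at Gabrb1 it was 0.50 without SOX2+/MKI67+ replicate 1, and at Grik4 it was 0.25 without SOX2+/MKI67- replicate 2 and 0.70 without replicate 1. Glutamate receptor genes held 26.4 ± 1.21 of every 10000 peaks in SOX2+/MKI67+ and 23.5 ± 2.76 in SOX2+/MKI67- libraries, and GABA receptor genes 10.3 ± 0.28 and 8.44 ± 0.91 in the same groups (SD, n = 2 each). With equal peak numbers or at gene ends alone, the sign of both differences turned.

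Regions listed in 2 of 2 libraries of one MKI67 group and 0 of 2 of the other were also counted. Of the 203, 5 (2.46%) were exclusive to SOX2+/MKI67+ cells, against 4.03% of all regions, and 2 (0.985%) to SOX2+/MKI67- cells, against 0.972%. Those of SOX2+/MKI67+ cells included regions inside Gabrb1 (chr5:71976482-71977026), Grid1 (chr14:34969176-34969646) and, as a pair, Grik4 (chr9:42520606-42521162 and chr9:42530115-42530705). The SOX2+/MKI67- regions lay inside Grik1 (chr16:87917244-87917573) and at the gene end of Grik2 (chr10:49790336-49790649). Of these 7 regions, 6 were also listed in at least 1 SOX2+ library of the other sort, where cycling and non-cycling cells were not separated. The 2 Grik4 regions were also listed in 3 and 2 of 4 SOX2- libraries and the Gabrb1 region in 1. The regions named in Grid1, Grik1 and Grik2 were listed in 0 SOX2- libraries. Exclusive here thus refers to the MKI67 sort alone.

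Each MKI67 group was also set against SOX2- cells, where sort and group cannot be told apart and the SOX2- libraries are those of the comparison above. In SOX2+/MKI67- cells 2 of 37 receptor genes were called, against 0.990% of all genes. One was lower and one higher, against 0.281% of all genes lower and 0.709% higher. Gabbr2 was listed at 0 and 0 in SOX2+/MKI67- libraries, against 0, 7, 1 and 4 peaks in SOX2- libraries, and fell by 2.00 ± 0.32 on the log2 scale (limma adjusted p = 0.0365). The ranges of these groups meet at 0, in the shortest list, and without the list length in the fit the difference was -1.58 (adjusted p = 0.722, and 0.0119 to 1 over its 21 alternatives). Gabrg3 rose in SOX2+/MKI67- cells, with a log2 difference of 1.27 ± 0.20 (limma adjusted p = 0.0382). As in the SOX2 sort, it had no peak in any SOX2- list and entered the test through groups in which it is high. Either call was lost without SOX2- replicates 2, 3 or 4, among others (adjusted p = 0.0602 to 0.124 over these 3). In SOX2+/MKI67+ cells 0 of 37 were called, against 0.534% of all genes, and 6 had an unadjusted p under 0.05, against 9.53%. The smallest p-values there were those of Grin2a (log2 difference -1.75 ± 0.36, limma adjusted p = 0.159), Grik5 (1.74 ± 0.36, adjusted p = 0.163) and Gria1 (-1.61 ± 0.34, adjusted p = 0.183). Each of these genes entered the test only through groups in which it is high, SOX2- for Grin2a and Gria1 and SOX2+ cells of both sorts for Grik5.

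Of the 47 genes 32 had at least 1 RefSeq promoter window, and these genes had 39 windows of 300 bases. A peak lay over 2 windows (5.13%) in all 12 lists, over 19 (48.7%) in 1 to 11 lists and over 18 (46.2%) in 0 lists. Of all 32619 promoter windows 16.0% were covered in all 12 lists, 24.5% in 1 to 11 and 59.5% in 0. The median number of CG dinucleotides was 21.5, 22 and 6.5 in these 3 classes of receptor-gene windows, and 25, 19 and 3 over all windows. The Gria2 window printed above holds 26 CG dinucleotides, that of Gria4 17, that of Gabrg3 13 and that of Gabrb2 11. CG-rich windows were not always covered, as Grik3 with 50 was covered in 2 lists and Gabbr2 with 46 in 3. The Gabbr2 window was covered in 2 of 4 SOX2+, 1 of 2 SOX2+/MKI67+, 0 of 2 SOX2+/MKI67- and 0 of 4 SOX2- lists. On either strand, CAGATG, an E-box letter sequence, occurred in 3 of the 39 windows (7.69%) and in 17.1% of all windows, and AACAAT, the core letters of SOX motifs, in 5 (12.8%) and in 10.6% of all windows. No receptor-gene window held both, and neither occurs in the 4 windows printed above.

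**Figure D5:**
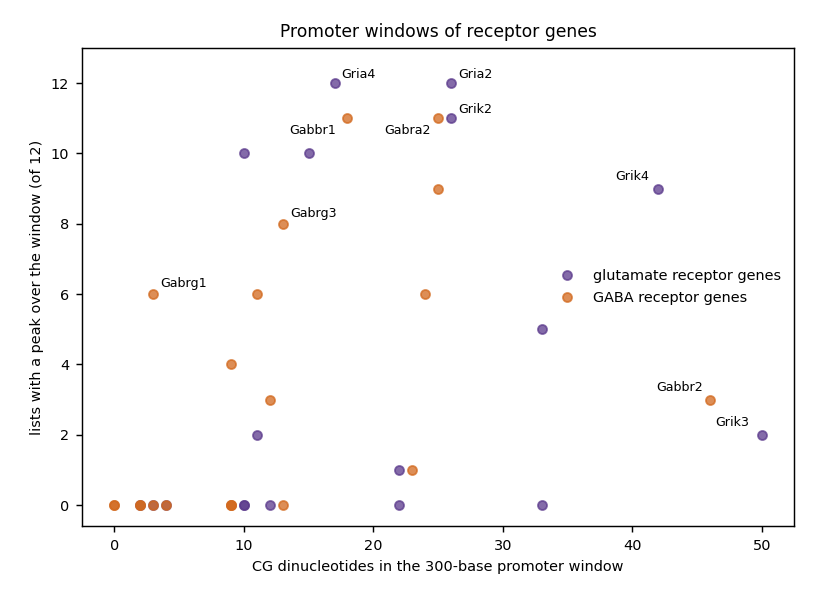
Number of lists with a peak over each of the 39 promoter windows of receptor genes (vertical axis, of 12) against the CG dinucleotides in the 300-base window (horizontal axis), coloured by transmitter. Gria2 and Gria4 lie at 12 lists, Gabrg3 at 8 with 13 CG dinucleotides, and Grik3 and Gabbr2 at 2 and 3 lists with the most CG dinucleotides.

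Genes that work with these receptors were taken from 4 lists and counted in the same limma fit of SOX2+ against SOX2- cells. Of 26 tested auxiliary subunit genes 0 rose and 1 fell (0.878% of all genes were called), and the median log2 difference was -0.016. An unadjusted p under 0.05 was reached by 6 of the 26 (23.1%), 3 higher and 3 lower, against 13.2% of all genes. The gene that fell was Cacng2, whose product stargazin carries AMPA receptors to cerebellar synapses, with 1 peak in each SOX2+ library, against 2, 5, 3 and 5 in SOX2- libraries. Its log2 difference was -1.25 ± 0.13 (limma adjusted p = 0.00529), and with equal peak numbers it was 0.35 and with the higher-scoring peaks of each list 0.28. Cacng4, a relative of Cacng2, had 3, 2, 3 and 7 peaks in SOX2+ libraries, against 0, 2, 0 and 0 in SOX2- libraries (log2 difference 1.64 ± 0.35, limma adjusted p = 0.0914). Of 26 tested postsynaptic scaffold genes 0 were called and 1 (3.85%) had an unadjusted p under 0.05, with a median of 0.12. Pick1, which binds AMPA receptors, had 5, 3, 5 and 5 peaks in SOX2+ libraries, against 0, 2, 1 and 2 in SOX2- libraries (1.28 ± 0.22, limma adjusted p = 0.0540). Of 22 tested genes for glutamate and GABA transporters and enzymes 1 rose and 0 fell, with a median of 0.14. An unadjusted p under 0.05 was reached by 8 of the 22 (36.4%), 5 higher and 3 lower. The gene that rose was Slc1a6, the glutamate transporter of Purkinje cells, with 3, 2, 3 and 3 peaks in SOX2+ libraries, against 0, 1, 0 and 1 in SOX2- libraries, which do not overlap. Its log2 difference was 1.31 ± 0.15 (limma adjusted p = 0.00790), and 0.50 with equal peak numbers (adjusted p = 0.435, and 0.00620 to 0.435 over its 23 alternatives). Of 4 tested glycine receptor genes 0 were called and 0 had an unadjusted p under 0.05. In the alternative without the genes of equal number, chosen after seeing the data, 1 auxiliary subunit gene rose and 1 fell. There 1 scaffold, 3 transporter and enzyme and 0 glycine receptor genes rose, against 1.43% of all genes in that fit. Those that rose included Pick1 (limma adjusted p = 0.0216) and Cacng4 (0.0343). Between SOX2+/MKI67+ and SOX2+/MKI67- cells limma called 0 genes of these lists, with 2, 0, 2 and 1 at an unadjusted p under 0.05 among auxiliary subunits, scaffolds, transporters and enzymes, and glycine receptors, against 4.69% of all genes.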

How the data were processed

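ATAC-seq peak lists of 12 libraries in 4 groups were analysed. Per the submitters' processing notes, the authors used Bowtie2, MACS2 and mm10, and each library had its own deposited list. Versions, settings, duplicate handling and any shift for the transposase are not given in the sources used here. Each deposited list held 4 values per peak, made by the authors within that list: its score, its fold (a ratio to the caller's background), its -log10 p-value and its -log10 q-value. The score was used to rank peaks within a list, the -log10 q-value was printed as a description, and the fold was not compared between lists. Reads were 50 bp single-end, per the labels' protocols, and read depth is unknown, so the number of peaks stood in for it.

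Peak midpoints were given to the nearest of 21631 protein-coding gene spans of GRCm38.p6 within 100 kb, and to the gene with the nearest end where spans overlap. That table holds no exons, so positions inside a gene were not resolved further. Peaks per gene were fitted with limma 3.58.1 in R 4.3.3 (lmFit, eBayes with trend) on log2(peaks + 1) over all 12 libraries, with group and log10 list length as terms. The test took genes listed in 2 or more libraries, and adjusted p under 0.05 was the threshold (Benjamini-Hochberg over all genes tested). The pseudocount of 1 sets the size of a log2 difference, above all for genes listed at 0 in a group. The fit was also run on simulated counts with known changes, drawn independently for each gene and list. These counts were not built to hold genes of equal number in every list, so they do not test that feature. Merged regions were peaks overlapping by at least 1 bp, and exclusive regions were listed in at least 3 of 4 libraries against 0 of 4, or 2 of 2 against 0 of 2. Promoter windows of 300 bases came from RefSeq on GRCm38.p6, and 15 of the 47 genes had no window.

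The named genes were those called in a comparison, the 5 with the smallest p in the SOX2 sort, the 3 in the MKI67 sort, the 3 with most peaks and those with a region listed in 4 of 4 libraries against 0 of 4. Others were named by family after their values were seen. Of the partner and marker lists, genes called or with the smallest p-values were named. Members and lists were chosen with earlier results of these data known. Alternatives were another pseudocount, other filters, no length term, equal peak numbers, the higher-scoring peaks of each list, 10 kb, gene ends alone, 100 bp overlap, 4 of 4, each library left out and a replicate block. Some genes and regions enter the fits and counts but are not reported here.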

Additional observations from a re-analysis of the deposited data

Results flagged for a closer look

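In SOX2+ libraries, Gabrg3 had 2 peaks in replicate 4 and 1 in each of the other libraries of its group, a gap that takes up the whole range of the group. Both peaks of replicate 4 lie in the promoter region chr7:57386572-57387468. Gabrb1 had 3 peaks in SOX2+ replicate 3 and 1 in each of the other SOX2+ libraries. Each of these values meets Dixon's criterion at the 95% level, and 24 groups of 4 libraries were looked at. The criterion flags about 1 in 20 groups by chance where values are continuous. That rate does not hold for small whole numbers with ties, where any group with equal values in all libraries but one meets it.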

How the results depend on the processing

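Read depth is unknown, so list length limits every comparison: a region absent from the shortest lists may lie just under their threshold. Receptor genes called in SOX2+ against SOX2- cells numbered 1, and 0 with the higher-scoring peaks of each list (those ranked above its median score), 3 without the genes of equal number, 2 without the shortest SOX2+ and SOX2- lists (both alternatives chosen after seeing the data) and 0 to 4 with a library left out. Over all genes the calls moved too, from 125 of 14245 to 69 of 11062, 229 of 12540 and 251 of 14220 in the same order. With equal peak numbers 226 of 9089 genes were called. With a library left out 82 to 197 genes were called, and the run with 4 receptor genes called 188 of 14229. Which receptor genes were called changed as well: the receptor gene called with equal peak numbers was Grid1, in each of the 3 comparisons with SOX2- cells, and without the shortest lists Gria1 and Grin2a were called and Gabrg3 was not (adjusted p = 0.0895). Gabrg3 was not tested with equal peak numbers. In SOX2+/MKI67- against SOX2- cells the number was 2, and 1 without the length term, 1 with equal peak numbers, 0 with the higher-scoring peaks, 0 at gene ends and 0 to 4 with a library left out. Over all genes these were 141 of 14245, 89 of 14245, 251 of 9089, 65 of 11062, 48 of 10821 and 98 to 218. In SOX2+/MKI67+ against SOX2- cells it was 0, and 1 with equal peak numbers and 0 to 3 with a library left out, against 76 of 14245, 149 of 9089 and 84 to 136 over all genes. In SOX2+/MKI67+ against SOX2+/MKI67- cells it was 0 under every alternative run, and 0 to 81 of all genes were called there.

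Regions exclusive to SOX2+ cells numbered 10, and 4 with equal peak numbers, 2 with the higher-scoring peaks, 6 when 4 of 4 were required, 16 without the shortest lists and 10 to 16 with a library left out. For SOX2- cells the number was 9, and 0, 1, 0 and 27 under the same alternatives, and 9 to 27 with a library left out (27 without replicate 1 and 26 without replicate 3). The higher values need only 2 of 3 libraries. When 4 of 4 were required, the 6 regions made up 2.96% of receptor-gene regions, against 1.61% of all regions, and the 0 of SOX2- cells compare with 0.158%. For the other alternatives the share of all regions is not printed here. The counts in this paragraph therefore show dependence on the rule and the lists, and are not read as a result about receptor genes. For SOX2+/MKI67+ cells it was 5, and 0 with equal peak numbers, 1 with the higher-scoring peaks and 6 to 30 with a library left out. For SOX2+/MKI67- cells it was 2, and 1, 0 and 2 to 9 under the same alternatives. The share of peaks at receptor genes, SOX2+/MKI67+ minus SOX2+/MKI67- per 10000, was 2.84 for glutamate, and -4.99 with equal peak numbers, -0.64 with the higher-scoring peaks and -1.26 at gene ends. For GABA it was 1.89, and -1.43, 0.65 and -0.36 under the same alternatives. With a library left out these shares were 0.88 to 4.79 and 1.25 to 2.53, and the cause was not tested.

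Log2 differences that changed sign were those of Gabrg3 (-0.0093), Grin3a (-0.061), Cacng2 (0.28) and Gabbr2 (-0.89) between SOX2+ and SOX2- cells with the higher-scoring peaks, and of Cacng2 (0.35) and Gabbr2 (-0.40) with equal peak numbers. With a library left out, Gabbr2 ran from -0.15 to 0.18 and Grik1 from -0.33 to 0.34. Gabbr2 turned negative when SOX2+ replicate 1 (-0.025) or 2 (-0.15), SOX2- replicate 3 (-0.050) or the shortest lists (-0.13) were left out. Grik1 was positive without the length term (0.18), with equal peak numbers (0.65), with the higher-scoring peaks (0.71), within 10 kb (0.0036), and without SOX2+ replicate 2 (0.34), SOX2+ replicate 4 (0.11), SOX2- replicate 3 (0.16) and the shortest lists (0.23). Between SOX2+/MKI67+ and SOX2+/MKI67- cells, Gabbr2 (-0.14) and Grik4 (-0.077) turned with the higher-scoring peaks, and Grik4 (-0.016) at gene ends.

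Replicate numbers are shared between the groups of a sort, but nothing in the labels ties them. Deviations of same-numbered libraries correlated at -0.36 to 0.19 for SOX2 and 0.036 for MKI67, and with list length taken out at -0.18 to 0.41 and 0.060. Not every pair was positive and not every library correlated best with its own number, so whether the numbers pair the libraries is not settled, and the block was not used in the reported fit. With the replicate block 0 receptor genes were called in either sort.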
